A study of Mus musculus with 12 samples.

Results

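The genes described here were 10 cyclic nucleotide phosphodiesterases measured by RNA-seq in mouse cortical neuron cultures: Pde1a, Pde1b, Pde1c, Pde2a, Pde4a, Pde4b, Pde4d, Pde7b, Pde8b and Pde10a. They are the rows with these symbols, 10 of the 23893 genes in the count table, and were listed with earlier results of these data known. The study asked how gene expression in neurons depends on topoisomerase I (TOP1), an enzyme that relaxes supercoiled DNA ahead of RNA polymerase. It compared deletion of the Top1 gene with topotecan, a drug that traps TOP1 on DNA.

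There were 4 groups of 3 cultures each, all of neurons from mid-gestation embryos and labelled with the strain C57BL6. The methods describe every culture as carrying the floxed allele (Top1fl/fl), so the cultures labelled Wild-type (WT) differed from the knockout cultures by the virus and not by the allele. WT cultures received a lentivirus with tdTomato, a red fluorescent protein, and Top1 conditional knockout (Top1 cKO) cultures received tdTomato with CRE recombinase. Infection was at 3 days in vitro (DIV), and at DIV 15 each kind of culture was given vehicle (Veh, 0.003% DMSO) or 300 nM topotecan in the same vehicle (Topot) for 3 days. The CaMKIIα promoter of the virus is active in excitatory neurons, and 85 to 90% of cells were transduced, so a Top1 cKO culture also held cells in which Top1 was intact. What a replicate number stands for was not stated.

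Cyclic nucleotide phosphodiesterases break down cAMP and cGMP, the second messengers that cyclases make when neurotransmitters or nitric oxide act on a cell. In neurons they set how long and how far a cAMP or cGMP signal travels, and so bear on protein kinase A, on ion channels gated by cyclic nucleotides and on transcription through CREB. The families differ in substrate and control: PDE1 enzymes are switched on by calcium and calmodulin, PDE2 is stimulated by cGMP, PDE4, PDE7 and PDE8 act on cAMP, and PDE10A, best known from striatal neurons, acts on both.

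The libraries held 1730164 to 4583777 counts. Top1 stood at 117 to 163 CPM (counts scaled to the library's effective total, per 10 to the power 6) in the 6 tdTomato libraries and at 27.1 to 44 CPM in the 6 CRE libraries, with no overlap, in the order the labels give. All 6 pan-neuronal markers were detected at 1 CPM or more on average, and the cultures also held glial RNA, with all 8 astrocyte markers at or above that level and the microglial markers Aif1 and Itgam and the endothelial marker Cldn5 at 3 counts or fewer in every library. Same-numbered libraries varied together around the mean of their groups, so every test was repeated with replicate number as a blocking factor (the block), and the blocked value stands beside any call that it alters. The threshold was a false discovery rate of 0.01 in edgeR's quasi-likelihood test, with p-values adjusted over all 23893 genes. Counts at an unadjusted p under 0.05 and counts of DESeq2 calls are also given. The share of all genes was not computed for either, so these counts have no background to be set against.

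All 10 genes were detected in every library. Pde1c was read from 8 to 39 counts per library and Pde7b from 15 to 56, so their values carry the widest counting error of the group. Per kilobase of exon in WT-Veh cells, the order ran from Pde2a (60.3 ± 9.7 CPM per kb, SD, n = 3) through Pde1a (20.7 ± 7.26), Pde1b (16.9 ± 2.61), Pde4a (15.2 ± 4.66), Pde4b (13.3 ± 2.05), Pde4d (13 ± 3.23), Pde8b (9.62 ± 1.03), Pde10a (8.65 ± 1.62) and Pde7b (1.9 ± 0.425) to Pde1c (0.863 ± 0.0707). Pde2a stood above Pde1a by more than the larger SD, and among the 5 genes from Pde1a to Pde4d no gene stood above the next by that measure. Pde8b and Pde10a were also within an SD of each other, and both stood clear of Pde7b. Exon lengths were taken from the union of all annotated exons, which lowers the value of genes with many alternative first exons. Pde2a had the highest and Pde7b and Pde1c the lowest values in all 4 groups.

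Summed over the 10 genes, WT-Veh cells held 1081 ± 129 CPM and WT-Topot cells 939 ± 87.9 CPM, and the sums for Top1 cKO-Veh and Top1 cKO-Topot cells were 1003 ± 69.5 and 884 ± 34.6 CPM (SD, n = 3). In these untested sums the Top1 cKO-Topot libraries lay below those of both vehicle groups, and the other pairs of groups overlapped. The PDE4 genes together took 34.9 to 40.2% of that sum in WT-Veh cells and 28.7 to 30.5% in Top1 cKO-Veh cells. Pde7b, Pde8b and Pde10a together took 15 to 19% in WT-Veh cells, 9.88 to 12.5% in WT-Topot cells, 15.3 to 18.5% in Top1 cKO-Veh cells and 16.6 to 17.5% in Top1 cKO-Topot cells. These shares are of CPM sums, in which longer transcripts count for more.

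**Figure D1:**
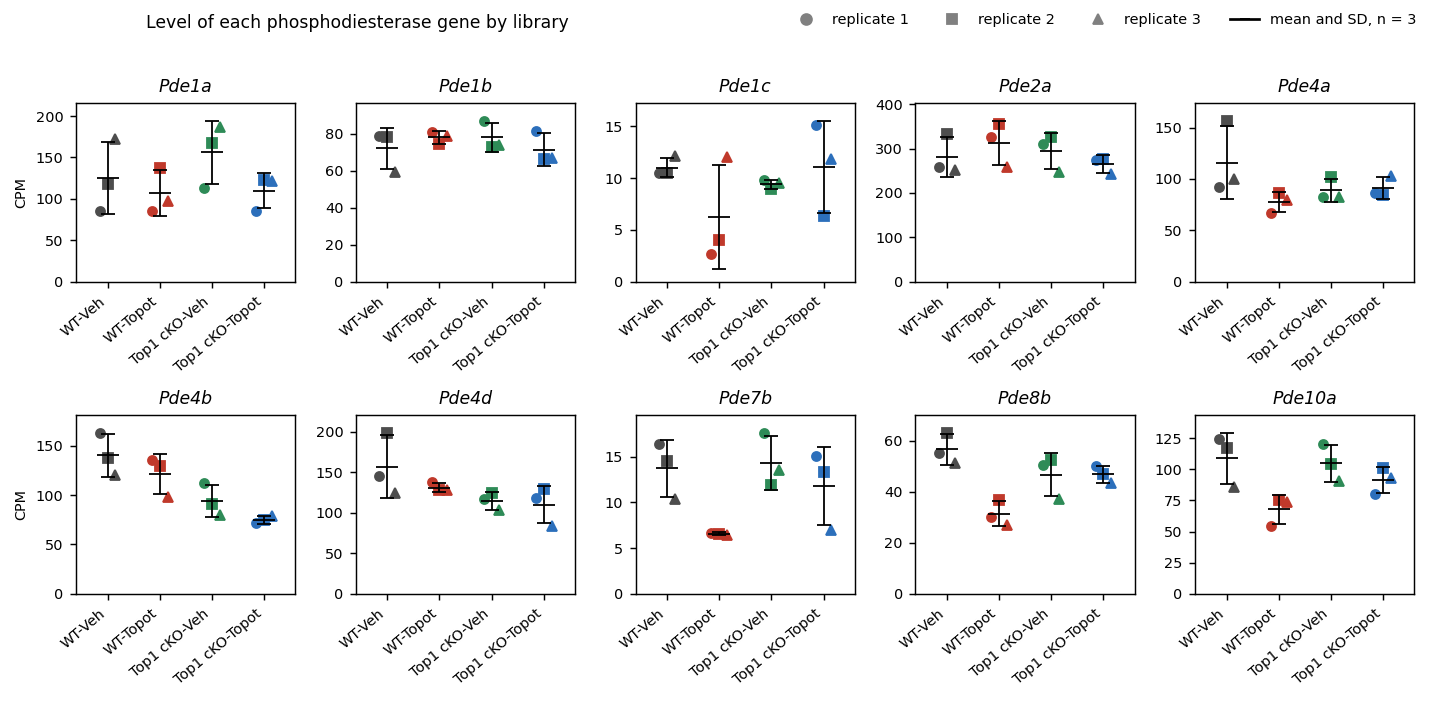
CPM of each gene in each of the 12 libraries, by group, with replicate numbers as symbols and the mean and SD of 3 cultures as bars. The WT-Topot libraries of Pde8b lie at 27 to 36.6 CPM, below all libraries of the other 3 groups, and the Pde4b libraries of Top1 cKO-Topot lie at 71.3 to 79.1 CPM, below all others.

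The first comparison asked what topotecan does to these genes in cells with intact Top1. Pde4a, Pde7b, Pde8b and Pde10a were lower in WT-Topot than in WT-Veh cells, with no overlap between the groups and with all 3 replicate numbers lower. None of the 10 genes passed the threshold in edgeR's quasi-likelihood test without the block, where 2.72% of all genes passed in either direction. With the replicate block, these 4 genes fell and none rose, where 5% of all genes fell. At an unadjusted p under 0.05 the 4 were also the members reached without the block and by DESeq2, which called none at its adjusted threshold. Over the 13720 genes that averaged 1 CPM or more, 13.2% had all 3 WT-Topot libraries below all 3 WT-Veh libraries.

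Pde8b encodes a cAMP-specific enzyme of high affinity that is not inhibited by the common inhibitor IBMX. It measured 55.3, 63.1 and 51.3 CPM in the WT-Veh libraries and 30.2, 36.6 and 27 CPM in the WT-Topot libraries. Every replicate number moved by a like amount, from -0.93 to -0.78 on the log2 scale. The log2 fold change was -0.85 (SE 0.218, 95% CI -1.30 to -0.39), with an adjusted p of 0.0265 without the block and 0.000208 with it. With the block the call was made in all 6 fits that left out a library, with adjusted p from 0.000765 to 0.00743. In such a fit the same-numbered partner of the left-out library no longer informs the comparison. Leaving out either library of a pair is therefore nearly the same check, so the 6 fits are not 6 separate checks, here or below. The gene spans chr13:95794409-96020291 on the minus strand of mm9, 225.9 kb.

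Pde10a encodes an enzyme that hydrolyses cAMP and cGMP. It measured 124, 117 and 85.8 CPM in WT-Veh and 54.6, 75 and 74.1 CPM in WT-Topot libraries. The drop was uneven, from -1.18 in replicate 1 to -0.21 on the log2 scale in replicate 3. The log2 fold change was -0.68 (SE 0.206, 95% CI -1.11 to -0.25), with an adjusted p of 0.0707 without the block and 0.000336 with it. The blocked call was lost without replicate 1 of either group, where the log2 fold change was -0.45 and adjusted p reached 0.177. Without the block, leaving out WT-Veh replicate 3, the lowest of its group, gave an adjusted p of 0.00721. The gene spans chr17:8718237-9179513 on the plus strand, 461.3 kb.

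Pde7b, a cAMP-specific enzyme gene, had the most negative log2 fold change of the 10. It measured 16.4, 14.5 and 10.4 CPM in WT-Veh and 6.7, 6.58 and 6.42 CPM in WT-Topot libraries. The 3 treated libraries stood close together, at 15 to 23 counts each. The log2 fold change was -1.07 (SE 0.341, 95% CI -1.78 to -0.36), with an adjusted p of 0.0922 without the block and 0.00751 with it. Its blocked call did not outlast the loss of any of the 6 libraries, with adjusted p from 0.0134 to 0.162. The gene spans chr10:20117810-20444884 on the minus strand, 327.1 kb.

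Pde4a was the shortest gene of the 4, at chr9:20970158-21017692 on the plus strand, 47.53 kb. It encodes a cAMP-specific enzyme, and PDE4 is the family that the drug rolipram inhibits. Its levels were 92.2, 157 and 99.6 CPM in WT-Veh and 66.7, 86.4 and 79.7 CPM in WT-Topot libraries. WT-Veh replicate 2 was far above the other 5 libraries. The log2 fold change was -0.58 (SE 0.22, 95% CI -1.04 to -0.12), with an adjusted p of 0.194 without the block and 0.00347 with it. Without that library the log2 fold change was -0.30 (adjusted p 0.781 without the block). The gene lost the blocked call without replicate 1 or replicate 2 of either group, where adjusted p reached 0.154.

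The other 6 genes did not pass in WT-Topot cells with or without the block. Pde4d, whose span of 1504 kb at chr13:109240142-110743669 is the longest of the 10, measured 146, 199 and 124 CPM in WT-Veh and 138, 128 and 128 CPM in WT-Topot libraries. Its log2 fold change was -0.25 with a 95% CI of -0.66 to 0.16, an interval that leaves out a fall below -0.66. Pde4b, which spans chr4:101760148-102279864, 519.7 kb, had a log2 fold change of -0.21 with a 95% CI of -0.61 to 0.19. Pde2a had the highest log2 fold change, 0.16 (95% CI -0.22 to 0.55), followed by Pde1b at 0.11 (95% CI -0.29 to 0.52). Pde1a stood at -0.22 (95% CI -0.72 to 0.29). Pde1c measured 10.5, 10.5 and 12.1 CPM in WT-Veh and 2.68, 4.01 and 12 CPM in WT-Topot libraries, so that replicates 1 and 2 were lower and replicate 3 was level. Its log2 fold change was -0.86 (95% CI -1.82 to 0.10), with an adjusted p of 0.482 without the block and 0.0314 with it. Without WT-Topot replicate 3 it was -1.70 (adjusted p 0.0353), and without WT-Topot replicate 1 it was -0.50 (adjusted p 0.945).

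Markers of other cells moved in the same comparison. The summed level of the 8 astrocyte markers was 2370 to 4826 CPM in WT-Veh and 1087 to 1836 CPM in WT-Topot libraries. The sum of the 6 pan-neuronal markers was 3609 to 4949 and 3219 to 3557 CPM, that of the 8 interneuron markers 781 to 1731 and 527 to 973 CPM, and that of the 10 markers of striatal medium spiny neurons 301 to 484 and 270 to 500 CPM. Without the block, 3 of 8 astrocyte markers, 1 of 6 pan-neuronal markers and 1 of 10 striatal markers fell, and with the block 5 of 8 astrocyte and 5 of 8 interneuron markers did. None of the 8 interneuron markers passed in edgeR's test without the block, where 5 were lower and 1 higher at an unadjusted p under 0.05, and DESeq2 called 1, Gad2. The part of these cells in the changes of the phosphodiesterase genes was not tested. In cultures of mixed cells, fewer cells of a type and less RNA per cell cannot be told apart.

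**Figure D2:**
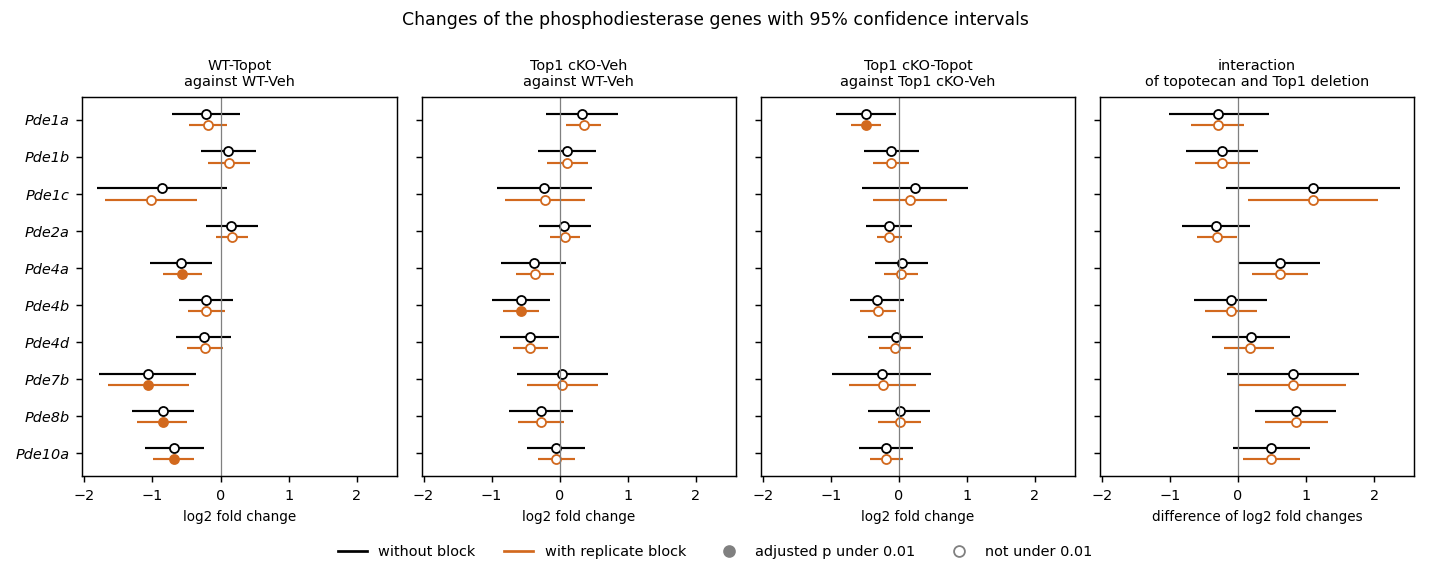
Log2 fold changes of the 10 genes with 95% confidence intervals, fitted without the replicate block (black) and with it (orange), for topotecan in WT cells, Top1 deletion, topotecan in Top1 cKO cells and the difference between the topotecan effects. Filled points have an adjusted p under 0.01, and all 6 of them are in fits with the block: Pde4a, Pde7b, Pde8b and Pde10a in the first panel, Pde4b in the second and Pde1a in the third.

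The second comparison asked what deletion of Top1 does in the absence of the drug. None of the 10 genes passed in Top1 cKO-Veh against WT-Veh cells without the block, where 0.172% of all genes did. At an unadjusted p under 0.05, 2 members were lower (Pde4b and Pde4d) and none higher, and DESeq2 called none at its adjusted threshold and 1, Pde4b, at an unadjusted p under 0.05. With the replicate block Pde4b fell and no other member changed, where 2.95% of all genes fell. The groups did not overlap for 2 members, Pde4b and Pde1c, both lower, where 10.3% of genes averaging 1 CPM or more were lower without overlap.

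Pde4b encodes a cAMP-specific enzyme expressed in neurons and in inflammatory cells. It measured 163, 137 and 120 CPM in WT-Veh libraries and 112, 90.7 and 80.2 CPM in Top1 cKO-Veh libraries. The replicate order was the same in both groups, and each replicate number differed by -0.60 to -0.55 on the log2 scale. The log2 fold change was -0.57 (SE 0.198, 95% CI -1.0 to -0.15), with an adjusted p of 0.29 without the block and 0.000807 with it. In each of the 6 fits that left out a library the blocked call was lost, although adjusted p stayed between 0.0114 and 0.0192. Pde4d, its paralogue, measured 117, 125 and 103 CPM in Top1 cKO-Veh libraries, with a log2 fold change of -0.44 (95% CI -0.87 to -0.01) and an adjusted p of 0.549 without the block and 0.0186 with it, and was at -0.23 without WT-Veh replicate 2.

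Microglial markers had lower values in Top1 cKO-Veh cells too. Their sum over all 8 was 5.18 to 20.2 CPM in WT-Veh and 2.51 to 6.64 CPM in Top1 cKO-Veh libraries, with Aif1 and Itgam at 3 counts or fewer in every library. None of the 8 passed in edgeR's test without the block or by DESeq2, 3 were lower at an unadjusted p under 0.05 by edgeR and 1 by DESeq2, and C1qb fell with the block. The median log2 fold change of the 3 that averaged 1 CPM or more was -1.62. Their part in the values of Pde4b was not tested.

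The 4 genes that fell in WT-Topot cells with the block did not pass after deletion, with or without it. Pde10a measured 120, 104 and 90.7 CPM in Top1 cKO-Veh libraries, with a log2 fold change of -0.05 against WT-Veh (95% CI -0.48 to 0.37). Pde7b lay between 11.9 and 17.6 CPM, with a log2 fold change of 0.04 (95% CI -0.63 to 0.71). Pde8b measured 50.4, 52.4 and 37.1 CPM, with a log2 fold change of -0.27 (95% CI -0.74 to 0.20). Pde4a measured 82.5, 102 and 82.7 CPM, with a log2 fold change of -0.38 (95% CI -0.86 to 0.09).

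In the direct comparison of WT-Topot with Top1 cKO-Veh cells, none of the 10 genes passed without the block, where 1.53% of all genes did, and 4 members were lower at an unadjusted p under 0.05, with 4 by DESeq2 and no DESeq2 call after adjustment. With the block, 3 members were lower in WT-Topot cells, where 4.8% of all genes were lower and 2.93% higher. Each of the 3 spans more than 100 kb, and 32.9% of such genes averaging 1 CPM or more were lower with the block. Pde7b differed by -1.1 on the log2 scale (adjusted p 0.00422), Pde10a by -0.64 (adjusted p 0.00145) and Pde1a by -0.54 (adjusted p 0.00163). Without single libraries, the blocked call for Pde7b was made in 1 of 6 fits, without Top1 cKO-Veh replicate 3. Those for Pde10a and Pde1a were made in 2 of 6 fits each. They were lost without replicate 1 or 2 of either group for Pde10a, and without replicate 2 or 3 of either group for Pde1a, with log2 fold changes of -0.81 to -0.38 and -0.67 to -0.33 over the 6 fits. Pde8b, at -0.58 (95% CI -1.06 to -0.11 without the block), had an adjusted p of 0.235 without the block and 0.0178 with it. Pde4a was at -0.20 (95% CI -0.60 to 0.19), with overlapping groups and an adjusted p of 0.885 without the block and 0.513 with it.

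Markers of cell types also differed between these groups, and every marker called by edgeR was lower in WT-Topot cells. Without the block, 3 of 8 astrocyte, 2 of 6 pan-neuronal and 1 of 8 interneuron markers were lower in WT-Topot cells, and with it 5, 3 and 6 were. The astrocyte sum was 1087 to 1836 CPM in WT-Topot against 2685 to 6145 CPM in Top1 cKO-Veh libraries, and the interneuron sum was 527 to 973 against 1189 to 1376 CPM. The microglial sum was higher in WT-Topot libraries, at 8.14 to 17.7 against 2.51 to 6.64 CPM. None of the 8 microglial markers passed, with or without the block, and 2 were higher at an unadjusted p under 0.05 by edgeR and none by DESeq2. The part of these cells in the phosphodiesterase values was not tested.

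Topotecan in Top1 cKO cells was compared with vehicle in the same cells. None of the 10 genes passed without the block, where 0.00837% of all genes did, and 1 member, Pde1a, was lower at an unadjusted p under 0.05, in edgeR as in DESeq2, which called none after adjustment. With the block Pde1a fell, where 1.74% of all genes fell, and 10.8% of genes over 100 kb that averaged 1 CPM or more. Pde1a, a calcium- and calmodulin-activated enzyme gene that spans chr2:79674610-79969632 on the minus strand, 295 kb, measured 113, 168 and 187 CPM in Top1 cKO-Veh and 85.6, 123 and 122 CPM in Top1 cKO-Topot libraries. The groups overlapped, and all 3 replicate numbers were lower after topotecan, by -0.62 to -0.40 on the log2 scale. The log2 fold change was -0.49 (SE 0.21, 95% CI -0.93 to -0.05), with an adjusted p of 1 without the block and 0.00165 with it. The blocked call was lost in each of the 6 fits that left out a library, with adjusted p from 0.0193 to 0.0962.

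The genes that were lower after topotecan in WT cells had small differences here. Pde8b measured 50.2, 46.8 and 43.3 CPM in Top1 cKO-Topot libraries, with a log2 fold change against Top1 cKO-Veh of 0.01 (95% CI -0.45 to 0.46). Pde10a measured 80.1, 101 and 93.1 CPM (log2 fold change -0.19, 95% CI -0.58 to 0.20). Pde4a measured 86.4, 84 and 103 CPM (log2 fold change 0.04, 95% CI -0.35 to 0.43). For Pde7b, at 15.1, 13.3 and 6.99 CPM, replicate 3 was lower than the other two and the interval was wide, with a log2 fold change of -0.25 (95% CI -0.98 to 0.47).

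Astrocyte markers also moved within Top1 cKO cells, from 2685 to 6145 CPM in the Top1 cKO-Veh libraries to 1686 to 3110 CPM in the Top1 cKO-Topot libraries as a sum of all 8, with none of the 8 called without the block or by DESeq2, 5 lower at an unadjusted p under 0.05 (2 by DESeq2) and 5 called with the block. Their part in the values of Pde1a was not tested.

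Whether the topotecan effect differed between Top1 cKO and WT cells was tested by the interaction of drug and deletion over all 12 libraries. None of the 10 genes passed with or without the block, where 0.435% of all genes passed without it and 3.97% with it, and DESeq2 called none. At an unadjusted p under 0.05, Pde4a and Pde8b had a less negative topotecan effect in Top1 cKO cells, by edgeR and by DESeq2. With the block 5 members did so, and 1, Pde2a, had a more negative effect. As in the other comparisons, the share of all genes at this unadjusted p was not computed. Genes over 100 kb that averaged 1 CPM or more had a median difference between the topotecan effects of 0.33 without the block. Over the 10 members the median was 0.34. With the block 17.9% of those long genes passed as higher. For Pde8b the difference of the effects was 0.85 on the log2 scale (SE 0.288, 95% CI 0.25 to 1.44), positive in 3 of 3 replicate numbers, with an adjusted p of 0.243 without the block and 0.0144 with it. For Pde4a it was 0.61 (95% CI 0.01 to 1.21), positive in 3 of 3 replicate numbers, with an adjusted p of 0.588, and was 0.33 without WT-Veh replicate 2. Pde7b gave 0.81 (95% CI -0.16 to 1.78) and Pde10a 0.48 (95% CI -0.08 to 1.05), and Pde4b and Pde4d gave -0.11 and 0.19.

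Cells with both drug and deletion were compared with WT-Veh cells, which are also the control of the first 2 comparisons. None of the 10 genes passed without the block, where 1.68% of all genes did, and 2 members, Pde4b and Pde4d, were lower at an unadjusted p under 0.05. DESeq2 called 1 member, Pde4b. With the block Pde4b fell and no other member changed, where 4.02% of all genes fell and 3.34% rose. Of genes over 100 kb that averaged 1 CPM or more, 18.3% fell and 5.34% rose. Pde4b measured 71.3, 74.7 and 79.1 CPM in Top1 cKO-Topot libraries against 163, 137 and 120 CPM in WT-Veh. Its log2 fold change was -0.88 (SE 0.194, 95% CI -1.29 to -0.48), with an adjusted p of 0.0106 without the block, beside the threshold, and 3.58e-05 with it. Other settings of the test gave 0.000593 to 0.0122. The blocked call was lost without replicate 1 of either group, where adjusted p reached 0.172. Microglial markers summed to 3.06 to 9.3 CPM in Top1 cKO-Topot libraries, with C1qb and 4 of 8 astrocyte markers lower than in WT-Veh with the block, and their part in the values of Pde4b was not tested.

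Against WT-Topot cells, Top1 cKO-Topot cells had less Pde4b and more Pde7b, Pde8b and Pde10a at an unadjusted p under 0.05, and none of the 10 genes passed without the block, where 2.49% of all genes did. DESeq2 called none after adjustment and 3 at an unadjusted p under 0.05 (Pde4b, Pde8b and Pde10a). With the block Pde4b was lower, where 4.08% of all genes were lower and 4.6% higher, and no other member passed. Of genes over 100 kb that averaged 1 CPM or more, 3.76% were lower and 24% higher. Pde4b measured 135, 129 and 97.6 CPM in WT-Topot libraries, and the log2 fold change was -0.69 (SE 0.184, 95% CI -1.07 to -0.31), with an adjusted p of 0.0253 without the block and 0.000163 with it. The blocked call was made in 3 of 6 fits that left out a library, and was lost without WT-Topot replicate 1, Top1 cKO-Topot replicate 1 or Top1 cKO-Topot replicate 3. Pde8b was higher in the Top1 cKO-Topot libraries by 0.57 (adjusted p 0.167 without the block and 0.0203 with it), Pde7b by 0.85 (0.265 and 0.0623) and Pde10a by 0.42 (0.297 and 0.0307).

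Markers moved here as well. Without the block, the pan-neuronal markers Rbfox3 and Snap25, the astrocyte marker Slc1a2, the interneuron marker Gad2 and the mural marker Rgs5 had higher levels after drug and deletion than after drug alone, and with it 4 of 8 interneuron and 2 of 8 astrocyte markers were. Of the 8 microglial markers none passed in edgeR's test, with or without the block, or by DESeq2, and 3 were lower at an unadjusted p under 0.05 by edgeR and none by DESeq2, with sums of 8.14 to 17.7 CPM in WT-Topot libraries. The part of these cells in the phosphodiesterase values was not tested.

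Genomic span was set beside these values because TOP1 acts during transcription along the gene body. Of the 10 genes, 7 span more than 100 kb, and Pde1b (27.02 kb), Pde4a (47.53 kb) and Pde2a (91.13 kb) are shorter. In WT-Topot against WT-Veh cells, genes over 100 kb that averaged 1 CPM or more had a median log2 fold change of -0.43, and 18.0% of these 2022 genes fell without the block and 33.9% with it. Genes of 100 kb or less had a median of 0.08, with 1.05% and 4.35% falling. With the block, 3 of the 7 long members fell (Pde7b, Pde8b and Pde10a) and 1 of the 3 shorter members (Pde4a). The order of the members did not follow their span: Pde4d and Pde4b, the longest, were at -0.25 and -0.21, and Pde8b, at 225.9 kb, was at -0.85. In Top1 cKO-Veh cells the median of the long genes was -0.05, and with the block 11.9% of long and 3.96% of shorter genes fell, with Pde4b the only member to do so.

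Several of the long members have short transcripts in the annotation, and counts over all exons of a gene do not tell these apart. Pde4d has 11 coding start sites and a shortest coding transcript that spans 13 kb, and for Pde4b the figures are 9 and 13.6 kb. Pde8b has 8 coding starts with a shortest transcript of 9.79 kb, Pde10a has 9 with 36.8 kb and Pde1a has 8 with 14 kb. For Pde7b and Pde1c the shortest coding transcripts span 141 and 262 kb. No member has exons that overlap those of another gene. Which transcripts carried the counts was not tested.

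**Figure D3:**
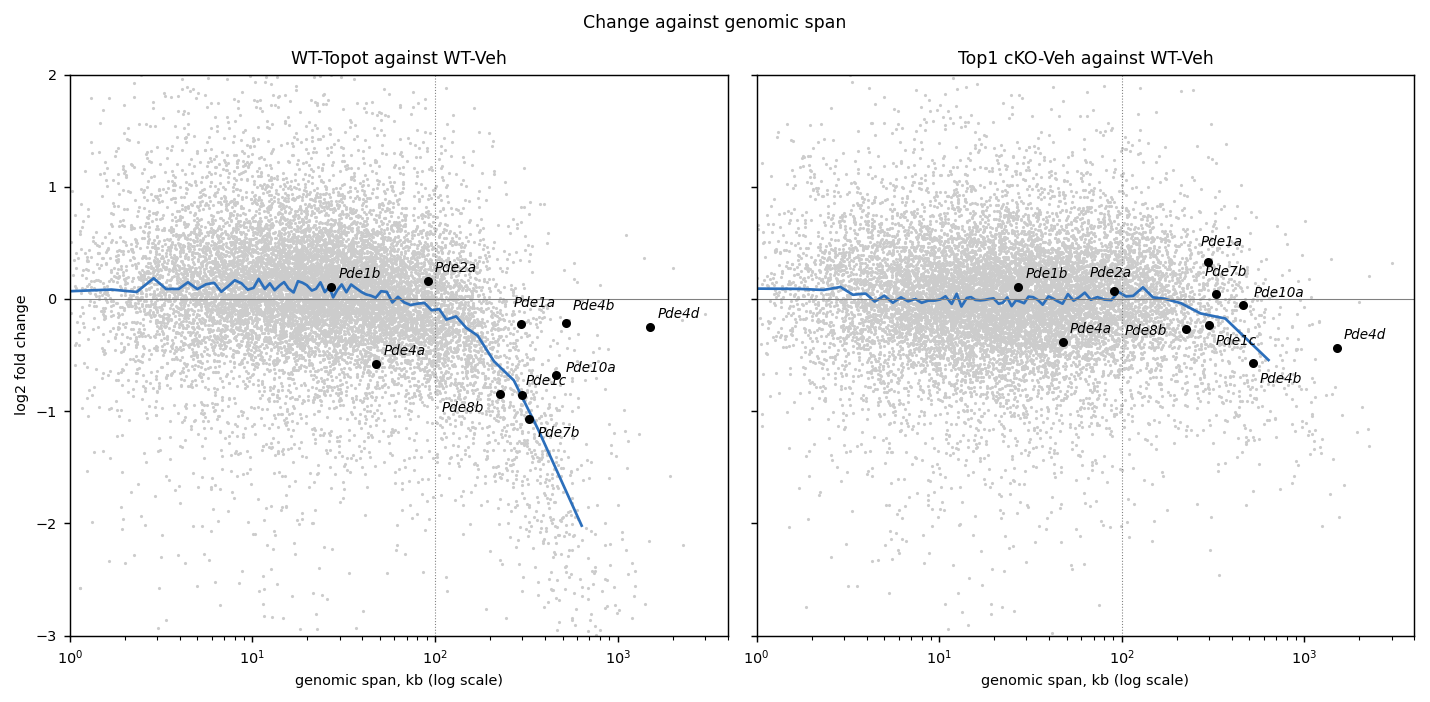
Log2 fold change without the block against genomic span on a log axis, for 13367 genes that averaged 1 CPM or more (grey), the medians of 60 equal groups of genes by span (blue line) and the 10 phosphodiesterase genes (black, named), in WT-Topot (left) and Top1 cKO-Veh (right) against WT-Veh cells. The dotted line marks 100 kb, and 283 and 219 genes beyond the axes are not drawn. Pde4d and Pde4b lie above the falling blue line on the left, and Pde7b, Pde1c and Pde8b lie on or near it. Of the other long members on the left, Pde10a (461.3 kb) is at -0.68. Pde1a (295 kb) is at -0.22, above Pde1c (299.8 kb) at -0.86.

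The upstream regions of the genes were searched for the core of the cAMP response element, to which CREB binds, since PDE4 genes are known to include cAMP-responsive promoters. The letters searched were TGACG and, for the full palindrome, TGACGTCA, on both strands of RefSeq promoters (GRCm38.p6) from 250 bases before to 50 bases after each start, where every TGACGTCA also holds a TGACG. Of 32851 mouse promoters 20.8% held TGACG and 1.79% held TGACGTCA. Of the 31 promoters of the members 5 held TGACG (16.1%), in Pde1a, Pde2a, Pde4a, Pde4b and Pde8b, and none held TGACGTCA. The letters are a description of these windows, not a site of binding. Upstream stretches with the match are shown for Pde1a, Pde4a and Pde4b, 3 of the members called in the comparisons above, 5′ to 3′ on the strand of the gene, with the match in capitals as CGTCA, the reverse complement.
Pde1a, chr2:80039024-80039108, minus strand: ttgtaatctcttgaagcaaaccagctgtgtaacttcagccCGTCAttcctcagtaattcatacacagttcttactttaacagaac
Pde4a, chr9:21184011-21184095, plus strand: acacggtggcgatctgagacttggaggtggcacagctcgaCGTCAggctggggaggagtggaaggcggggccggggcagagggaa
Pde4b, chr4:102421481-102421554, plus strand: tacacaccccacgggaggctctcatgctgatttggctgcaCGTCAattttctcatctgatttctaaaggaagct

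Of 13 other cyclic nucleotide phosphodiesterases, 5 averaged 1 CPM or more: Pde7a at 28.8 to 50.7 CPM over the 12 libraries, Pde3b at 3.98 to 11, Pde3a at 1.01 to 8.33, Pde5a at 2.19 to 6.31 and Pde9a at 0.286 to 3.91. None of the 13 passed in any comparison by edgeR, with or without the block, or by DESeq2, and at an unadjusted p under 0.05 edgeR without the block gave 1, Pde6b, in Top1 cKO-Topot against WT-Veh cells, and DESeq2 none. Pde4c, the fourth PDE4 gene, had at most 1 count in a library.

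Several other genes of the cyclic nucleotide pathway had larger log2 fold changes in WT-Topot cells than any of the 10 phosphodiesterases. Without the block, 3 of 18 cyclase genes fell and none rose: Adcy8, a calcium-stimulated adenylyl cyclase, from 94.2 ± 15.6 to 23.5 ± 1.55 CPM (log2 fold change -2.0, adjusted p 4.51e-06), Gucy1a2, a subunit of the nitric oxide receptor guanylyl cyclase (log2 fold change -1.81, adjusted p 3.89e-05), and Adcy1, another calcium-stimulated cyclase (log2 fold change -1.08, adjusted p 0.000264). Adcy8, Gucy1a2 and Adcy1 span 223, 365 and 115 kb. In this comparison 2.72% of all genes passed without the block. At 1 CPM or more 3.56% of genes fell, and 18% of those over 100 kb did. The median over the 13 cyclases that averaged 1 CPM or more was -0.03, against -0.42 over the 10 phosphodiesterases and 0.03 over the 13720 genes at that level, or -0.43 over those of them that span more than 100 kb, as 7 of the 10 do.

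Among 22 effector genes 2 fell and none rose. Rapgef4, which encodes the cAMP-activated exchange factor EPAC2, went from 131 ± 8.69 to 28.2 ± 5.05 CPM (log2 fold change -2.21, adjusted p 1.27e-06). Prkg1, a cGMP-dependent kinase, differed by -2.36 (adjusted p 0.00374), a call that was lost without WT-Veh replicate 2 (adjusted p 0.0231). Of 16 anchor and CREB pathway genes only Akap6, an anchoring protein of protein kinase A, fell without the block, from 560 ± 57.2 to 137 ± 28.8 CPM (log2 fold change -2.02, adjusted p 1.16e-06). Rapgef4, Prkg1 and Akap6 span 276, 1196 and 452 kb, and 18% of genes over 100 kb at 1 CPM or more fell without the block. None of 7 G protein alpha subunit genes passed in edgeR's test without the block, and Gnao1 was lower at an unadjusted p under 0.05, in DESeq2's adjusted test and with the block. Over the other 3 lists, the block gave 4 cyclases lower and 1 higher, 3 effectors lower and none higher, and 2 anchor and CREB pathway genes lower and 2 higher, where 5% of all genes fell and 3.24% rose. At 1 CPM or more 8.71% fell and 5.62% rose with the block, and of those over 100 kb 33.9% fell and 2.03% rose.

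In Top1 cKO-Veh against WT-Veh cells none of the 63 genes of these 4 lists passed in edgeR's test without the block, with 8 lower and 9 higher at an unadjusted p under 0.05 and 3 called by DESeq2. With the block 2 cyclases passed as lower (Adcy8 fell by 1.22 and Gucy1a2 fell by 1.07 on the log2 scale) and Gucy1a3 rose by 0.55, 4 effectors fell and 3 rose, and 1 anchor and CREB pathway gene fell and 3 rose, among them Akap5, by 1.1, where 2.95% of all genes fell and 2.6% rose. Over genes that averaged 1 CPM or more these shares were 5.15% and 4.53%, and over those of them that span more than 100 kb they were 11.9% and 4.65%. In Top1 cKO-Topot against Top1 cKO-Veh cells again none passed without the block, with 4 lower and 3 higher at an unadjusted p under 0.05 and 1 called by DESeq2. With the block 3 genes fell and 3 rose, where 1.74% of all genes fell and 0.858% rose. At 1 CPM or more 3.02% fell and 1.49% rose, and of those over 100 kb 10.8% fell and 1.24% rose. Gucy1a2 fell by 1.15 and Akap6 and Gnao1 each fell by 0.37. The 3 that fell span 365, 452 and 159 kb in that order. Pkib, an inhibitor of protein kinase A, rose by 1.05, Akap12 by 0.68 and Prkar1a, a regulatory subunit of protein kinase A, by 0.32.

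**Figure D4:**
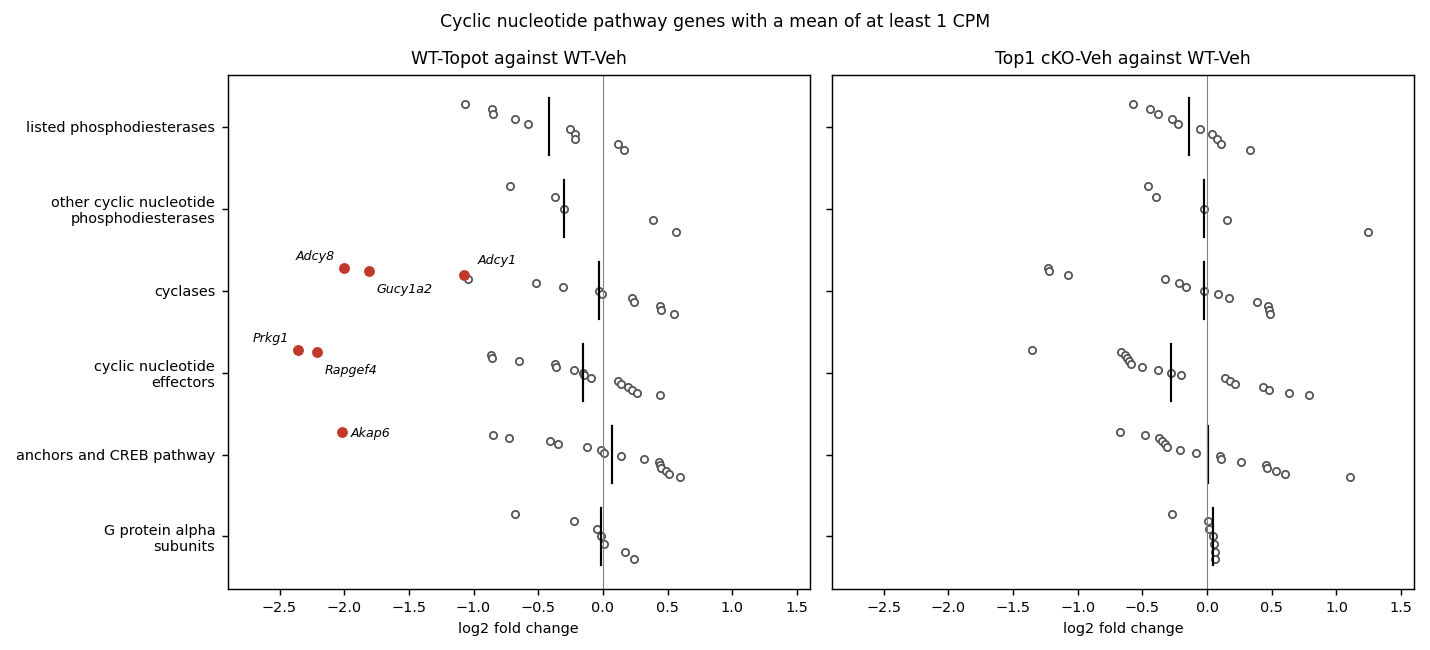
Log2 fold changes without the block of the cyclic nucleotide pathway genes that averaged 1 CPM or more, by list, in WT-Topot (left) and Top1 cKO-Veh (right) against WT-Veh cells, with a bar at each list's median. Red points passed an adjusted p of 0.01 and are named: 3 cyclases, 2 effectors and Akap6 on the left, and none on the right.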

How the data were processed

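RNA-seq libraries from 12 cultures, 3 in each of 4 groups, were analysed; groups and replicate numbers came from the sample labels. The authors ran TagDust on the paired reads, mapped these to mm9 by TopHat, discarded rRNA reads and deposited raw counts over RefSeq exons by gene symbol. The counting program, its use of strand and the versions are not given in the sources used here.

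Counts were scaled by TMM. Each pair of groups was fitted on its 6 libraries by the quasi-likelihood test of edgeR 4.0.16 (R 4.3.3), with no filter on genes and Benjamini-Hochberg adjustment over all 23893 genes. The interaction was fitted on all 12. P-values without the block measure the spread between cultures, which nothing shows to come from separate litters. With the block, the spread between replicate numbers is taken out first. The spread that remains is then estimated largely from all genes together, because so few libraries are left to measure it for each gene. On 13720 genes, deviations from group means correlated at 0.261 to 0.485 between libraries with the same number and at -0.384 to -0.0494 between different numbers, so the labels' numbers were taken to pair the libraries. No library repeated another of its group (dispersion index 5.71 to 9.36). Alternatives were the replicate block, DESeq2 1.42.0, its size factors, filterByExpr, a joint fit, an FDR of 0.05 and each replicate left out. On simulated counts for WT-Topot against WT-Veh, the test recovered 25 of 100 genes changed by 1 on the log2 scale and 100 of 100 changed by 2, with 1 false call. The simulation gave all genes the same dispersion, had no effect of replicate number and changed only genes above a set level. Its figures are therefore not the recovery or false-call rate of the test on these libraries.

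Genomic spans are from GENCODE vM1 (mm9), which matched 21013 symbols directly and 1104 by a synonym, with 1776 unmatched. All 10 genes are named with their values, and up to 5 called genes of each pathway list by size of change. Of the effector list, 1 gene is not reported here, for a reason other than its values, and counts and medians cover the other 22. The members and lists were chosen with earlier results of these data known.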

Additional observations from a re-analysis of the deposited data

Results flagged for a closer look

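The topotecan effect differed between Top1 cKO and WT cells for 3 genes of the pathway lists, tested by the interaction term without the block, and for none of the 10 phosphodiesterases. In that fit 0.435% of all genes passed. Each of the 3 genes spans more than 100 kb, and 3.31% of such genes averaging 1 CPM or more passed in the same direction. For Adcy8 the effect was less negative in Top1 cKO cells by 1.70 on the log2 scale (adjusted p 0.00634, and 0.0109 to 0.0194 without single libraries where the call was lost). For Rapgef4 the difference was 2.03 (adjusted p 0.000407), with mean levels of 131 and 28.2 CPM in WT-Veh and WT-Topot cells and of 87 and 76.9 CPM in Top1 cKO-Veh and Top1 cKO-Topot cells. For Akap6 it was 1.64 (adjusted p 0.000834), with mean levels of 560, 137, 450 and 345 CPM in the same order.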

How the results depend on the processing

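The replicate block changed calls most: in WT-Topot against WT-Veh cells the members called lower went from 0 to 4, against Top1 cKO-Veh from 0 to 3, and from 0 to 1 in each of the other 4 comparisons of 2 groups. It changed no other call of a member, and no setting called a member higher or called the interaction for a member. An FDR of 0.05 called 1 member lower in WT-Topot against WT-Veh (Pde8b), in Top1 cKO-Topot against WT-Veh and in Top1 cKO-Topot against WT-Topot cells (Pde4b in each). In Top1 cKO-Topot against WT-Veh cells 1 member, Pde4b, was also called with DESeq2's size factors, by DESeq2 and in the joint fit of 12 libraries. Leaving out single libraries gave 0 to 1 members lower there (1 without WT-Veh replicate 3 or Top1 cKO-Topot replicate 3) and 0 to 1 in WT-Topot against WT-Veh cells (1, Pde10a, without WT-Veh replicate 3).

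Some log2 fold changes near 0 changed sign when a library was left out. They ranged in WT-Topot against WT-Veh from -0.44 to 0.083 (Pde1a) and from -6e-05 to 0.17 (Pde1b), and in Top1 cKO-Veh against WT-Veh from -0.0065 to 0.17 (Pde1b), -0.0023 to 0.22 (Pde2a), -0.15 to 0.19 (Pde7b) and -0.19 to 0.048 (Pde10a). In Top1 cKO-Topot against Top1 cKO-Veh they ranged from -0.068 to 0.54 (Pde1c), -0.057 to 0.14 (Pde4a), -0.17 to 0.10 (Pde4d), -0.48 to 0.0032 (Pde7b) and -0.13 to 0.092 (Pde8b, with -0.0045 in the joint fit). The interaction ranged from -0.24 to 0.028 (Pde4b) and from -0.024 to 0.34 (Pde4d). Among the named pathway genes, Prkg1 lost its call under filterByExpr (adjusted p 0.013). The cause of these differences was not tested. Depth limits the low members most: Pde7b and Pde1c had 8 to 56 counts in a library.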

Other observations

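Several phosphodiesterase genes were lowest in the same replicate number in most or all groups. Pde1a was lowest in replicate 1 in all 4 groups, and Pde2a and Pde8b were lowest in replicate 3 in all 4. Pde1b and Pde1c were lowest in replicate 2 in 3 of 4 groups, and Pde4b, Pde4d and Pde7b were lowest in replicate 3 in 3 of 4.

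Over the 12 libraries, the genes outside the list with a pattern most like that of Pde7b, by Pearson correlation of log2(CPM + 1) among 9498 genes that averaged 10 CPM or more, were Acsl6 (r = 0.904) and Ddah1 (0.903). For Pde2a they were Ywhaz (0.909), Ap2a2 (0.898) and Pggt1b (0.895). These values describe libraries that share groups, replicate numbers and depth, and are the highest of many.

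All 10 markers of striatal medium spiny neurons, the cells known for high Pde10a, averaged 1 CPM or more. The sum of the oligodendrocyte lineage markers was 98.5 to 155 CPM in WT-Veh and 128 to 152 CPM in WT-Topot libraries, that of the endothelial and mural markers 20.6 to 32.8 and 16.3 to 21.1 CPM, and that of proliferating cells 24.5 to 31.7 and 20.4 to 33 CPM.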
